A study of Mus musculus with 24 samples.

Results

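The genes described here are the 7 genes of MHC class II presentation *Cd74*, *H2-Aa*, *H2-Ab1*, *H2-Eb1*, *H2-DMa*, *H2-DMb1* and *Ciita*, chosen by their symbols among the 32288 genes of each count file, and all 7 were listed in all 24 libraries. MHC class II molecules display peptides from endocytosed proteins to CD4 T cells. The α and β chains (*H2-Aa* with *H2-Ab1* for I-A, the *H2-Eb1* β chain for I-E) are assembled on the invariant chain encoded by *Cd74*, which fills the peptide groove and directs the complex to endosomes, where the H2-DM dimer (*H2-DMa*, *H2-DMb1*) exchanges the remaining fragment for peptide. *Ciita* encodes the transactivator that turns these genes on. In the brain the genes are known mainly from macrophages of the vessels, meninges and choroid plexus, from dendritic cells and from B cells, and microglia carry little class II unless activated. C57BL/6 mice, the background of the strain, lack surface I-E because of a defect in *H2-Ea*, so *H2-Eb1* was read here as a transcript only.

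Nuclei were sequenced from frozen brains of the strain B6.Pdgfbtm3Cbet, in which the retention motif of PDGF-B is deleted. The 6 mutant mice were Pdgfb ret/ret and all female. The 6 control mice were Pdgfb ret/wt, so they carried 1 copy of the same allele, and mouse 6 of the controls was male. Mice 1 to 3 of each genotype were aged 5 months and up to 18 days, mice 4 to 6 were 4 months and 7 to 24 days, and each mouse gave 1 deep brain library (pallidum, thalamus and hypothalamus, midbrain and pons, where vessels calcify in mutants) and 1 cortex library (cerebral cortex and hippocampus, where they do not). The animals were perfused and given no other treatment that the labels name.

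Libraries held 64736053 to 96459036 UMIs in the deep brain and 23625232 to 95605387 in the cortex, and 124958 deep brain and 79967 cortex nuclei were kept (7715 to 11952 and 2328 to 11083 per library). In the cortex 38301 nuclei fell in clusters with a median of 833 UMIs and were kept as an unnamed low-depth class. The deep brain had 1 such cluster, of 2141 nuclei with a median of 982 UMIs. Any 2 libraries shared 60 to 246 cell barcodes, at most 2.37% of the smaller one. Nuclei of each cluster with the markers of a type were called by that type, for example macrophage-like, and the class II genes took no part in the clustering. The defining markers were present: 8 of 8 macrophage markers and 9 of 9 microglial markers were over 2-fold above the other nuclei in each region and genotype. Values are given as UMIs of a gene per 1000000 UMIs of the nuclei summed (CPM) and are compared between groups or classes, not between genes.

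In the GENCODE M21 annotation of GRCm38, 5 of the members lie in the class II region of chromosome 17, within 197 kb: *H2-DMa* at chr17:34119541-34139101 (plus strand), *H2-DMb1* at chr17:34153072-34160230 (plus), *H2-Ab1* at chr17:34257689-34269419 (plus), *H2-Aa* at chr17:34282744-34287823 (minus) and *H2-Eb1* at chr17:34305867-34316674 (plus). *Cd74* is at chr18:60803848-60812652 (plus) and *Ciita* at chr16:10480059-10528418 (plus).

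In the counting, *H2-DMb1* has a near-identical neighbour, *H2-DMb2*, between which reads may have been divided. The annotated span of *Ciita* shares 25888 bases with *Dexi* on the opposite strand, and that of *H2-DMa* shares 3094 bases with *Brd2* on the opposite strand. On the same strand *H2-DMa* shares 591 bases with *CR974462.3*, which the count files also list. *H2-Eb1* shares 2204 bases with *Gm20513* on the opposite strand. Reads from introns were counted, and the part of these overlaps in the *Ciita*, *H2-DMa* and *H2-Eb1* counts was not tested.

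Genes of the class II system are known to share a promoter module with an X-box, bound by RFX, and a Y-box, bound by NF-Y, onto which CIITA is recruited. RefSeq promoter windows on GRCm38.p6 (250 bases before to 50 after the start) were at hand for 4 of the 7 members, in 5 windows. They were searched on both strands for CTNGNAACT, an X-box-like motif, and TGATTGG, a Y-box, which do not overlap each other, and both letter strings were chosen after the windows had been read. Both motifs stood in the windows of *H2-Aa*, *H2-Eb1* and *H2-DMb1*, whereas 115 of all 32851 promoter windows held both (0.3501%), 4.10% held the first and 7.82% the second. The 2 windows of *H2-DMa* held neither, and that of *H2-DMb2* held the Y-box alone. The stretches around the motifs of an α and a β chain gene are shown to let the module be seen, with the 2 motifs in capitals and 10 bases on either side. The first is chr17:34287857-34287917 on the minus strand and the second chr17:34305763-34305822 on the plus strand.
H2-Aa: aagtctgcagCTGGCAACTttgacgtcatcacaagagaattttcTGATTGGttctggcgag
H2-Eb1: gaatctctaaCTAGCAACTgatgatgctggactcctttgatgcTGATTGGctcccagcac
The motifs were 25 bases apart in *H2-Aa* and *H2-DMb1* and 24 apart in *H2-Eb1*. The X-box-like motif began at position -84 from the start in *H2-Aa*, at -94 in *H2-Eb1* and at -97 in *H2-DMb1*. A match is a description of the letters and not evidence of binding.

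The members fell into 3 patterns over the nuclear classes. *Cd74* and the chains *H2-Aa*, *H2-Ab1* and *H2-Eb1* were concentrated in a few immune nuclei. In the deep brain the 4808 nuclei of the immune cluster, 3.85% of all nuclei, held 57.6% of the *Cd74* UMIs, 52.6% of those of *H2-Aa*, 67.6% of those of *H2-Ab1* and 56.8% of those of *H2-Eb1*. *H2-DMb1*, at 47.1%, was close to this pattern. *H2-DMa* was spread over all classes instead, with 3.88% of its UMIs in immune nuclei and 79.5% in neurons, which held 78.9% of all UMIs. Its level was 136.6 CPM in macrophage-like and 66.3 CPM in microglia-like nuclei of the deep brain, and 16.1 to 39.7 CPM in the classes outside the immune cluster. *Ciita* also had most of its UMIs in neurons (76.6%), and 14.4% in immune nuclei. In the cortex, where 2.21% of nuclei were immune, the shares in immune nuclei were 46.8% for *Cd74*, 44.3% for *H2-Aa*, 52.9% for *H2-Ab1*, 47.2% for *H2-Eb1*, 41.3% for *H2-DMb1*, 2.96% for *H2-DMa* and 9.77% for *Ciita*, and the low-depth class held 24.9% of the *Cd74* UMIs. In both regions the immune cluster also held mixed nuclei with markers of neurons, oligodendrocytes or other types, and these count in the immune shares.

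**Figure D1:**
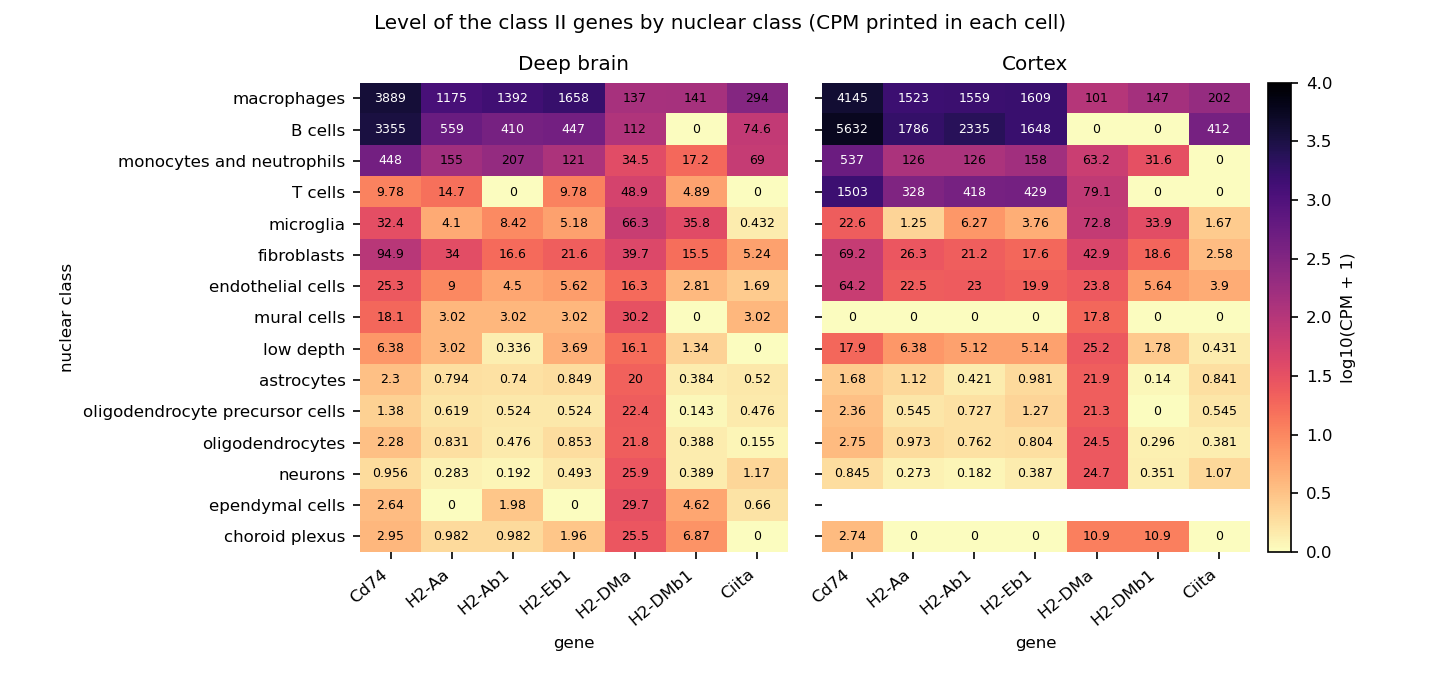
Level of each member (columns) in each nuclear class (rows) of the deep brain and the cortex, as CPM over all nuclei of the class; the colour is log10(CPM + 1), the number in each cell is the CPM, and the ependymal row is blank in the cortex. Macrophage-like and B-like nuclei stand out for *Cd74* and the I-A and I-E chains, while *H2-DMa* is present in every class with many nuclei.

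Among the classes the invariant chain *Cd74* was highest in macrophage-like nuclei, at 3889 CPM in the deep brain and 4145 CPM in the cortex, and in the few B-like nuclei, at 3355 CPM over 17 deep brain nuclei and 5632 CPM over 2 cortex nuclei. T-like nuclei had 9.78 CPM in the deep brain and 1503 CPM in the cortex, where the UMIs all came from 1 nucleus. The monocyte- or neutrophil-like nuclei had 448 and 537 CPM. Fibroblast-like nuclei had 94.9 and 69.2 CPM, microglia-like nuclei had 32.4 and 22.6 CPM, and endothelial-like nuclei 25.3 and 64.2 CPM, the latter 24.0 CPM without 1 nucleus that held 93 of 148 UMIs. Neurons, oligodendrocytes, oligodendrocyte precursor cells and astrocytes lay between 0.845 and 2.75 CPM. This order is a description of sums over all libraries, and the last classes were not separated from one another.

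The I-A and I-E chains, like *Cd74*, were highest in macrophage-like and B-like nuclei, but their ratio to *Cd74* varied between classes. In deep brain macrophage-like nuclei there were 30.2 *H2-Aa*, 35.8 *H2-Ab1* and 42.6 *H2-Eb1* UMIs per 100 *Cd74* UMIs. In microglia-like nuclei the 3 chains came to 12.7, 26.0 and 16.0 per 100, in fibroblast-like nuclei to 35.9, 17.5 and 22.8, and in oligodendrocytes to 36.4, 20.9 and 37.4. B-like nuclei had 16.7, 12.2 and 13.3 per 100, on 90 *Cd74* UMIs. The H2-DM genes followed another course. In microglia-like nuclei *H2-DMa* was at 66.3 CPM in the deep brain and 72.8 CPM in the cortex, against 25.9 and 24.7 CPM in neurons, and *H2-DMb1* was at 35.8 and 33.9 CPM, while *Ciita* was at 0.432 and 1.67 CPM. Macrophage-like nuclei had 137 and 101 CPM of *H2-DMa*, 141 and 147 CPM of *H2-DMb1*, and 294 and 202 CPM of *Ciita*, against 1.17 and 1.07 CPM of *Ciita* in neurons. Microglia-like nuclei were above neurons for both H2-DM genes and below macrophage-like nuclei for all 7 members.

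Free RNA gives scattered UMIs in nuclei that do not express a gene, so the share of nuclei with a UMI was set against oligodendrocytes and neurons. In the deep brain 63.6% of macrophage-like nuclei had a *Cd74* UMI, or 59.1% after thinning each nucleus to 1000 UMIs. The shares were 4.01% of microglia-like nuclei (2.26% thinned, median depth 2225 UMIs) and 11.1% of fibroblast-like nuclei (5.77% thinned, 2888 UMIs), against 0.637% of oligodendrocytes (0.255% thinned, 2687 UMIs) and 0.8802% of neurons (0.132% thinned, 9884 UMIs). In the cortex the thinned shares were 48.5% of macrophage-like, 1.91% of microglia-like and 3.56% of fibroblast-like nuclei, against 0.184% of oligodendrocytes and 0.110% of neurons. The low-depth class of the cortex, whose cell types are not known, had a thinned share of 1.53% and a level of 17.9 CPM, close to the 22.6 CPM of the microglia-like nuclei there. The shares in oligodendrocytes and neurons were taken as the background for *Cd74*, and whether these classes express the gene themselves was not tested. For *H2-DMa* the thinned share was 2.49% of neurons, 2.16% of oligodendrocytes and 5.90% of microglia-like nuclei, so its presence in neurons and oligodendrocytes was at a like low level in both.

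Which members differed between mutant and control was first asked of whole libraries, all kept nuclei summed. In such sums more nuclei of a type and more RNA per nucleus cannot be told apart. The immune cluster made up 3.97 to 5.32% of kept nuclei in the deep brain libraries of mutants (median 4.19%) and 2.94 to 3.86% in those of controls (median 3.23%), without overlap, and its part in the whole-library values of class II and other immune genes was not tested. In the deep brain *Cd74* ranged from 3.80 to 9.71 CPM over the 6 mutants (median 6.198, mean 6.40 ± 1.90 SD) and from 1.10 to 4.73 CPM over the 6 controls (median 2.52, mean 2.87 ± 1.505 SD). Of the 6 mutants 5 were above the highest control, mutant 4 was the low one, and controls 2 and 6 were the highest controls. The I-A α chain *H2-Aa* had 0.998 to 2.87 CPM in mutants (median 2.04) and 0.326 to 1.35 CPM in controls (median 0.859). The I-A β chain *H2-Ab1* had 1.06 to 2.53 CPM in mutants (median 1.94) and 0.316 to 1.22 CPM in controls (median 0.657). For both chains, too, 5 of 6 mutants were above the highest control. *H2-Eb1* had 1.51 to 3.00 CPM in mutants (median 2.44) and 0.359 to 1.959 CPM in controls (median 0.969), with 4 mutants above the highest control. None of the 7 members was separated without overlap, against 0.953% of the 25187 genes with at least 15 UMIs.

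**Figure D2:**
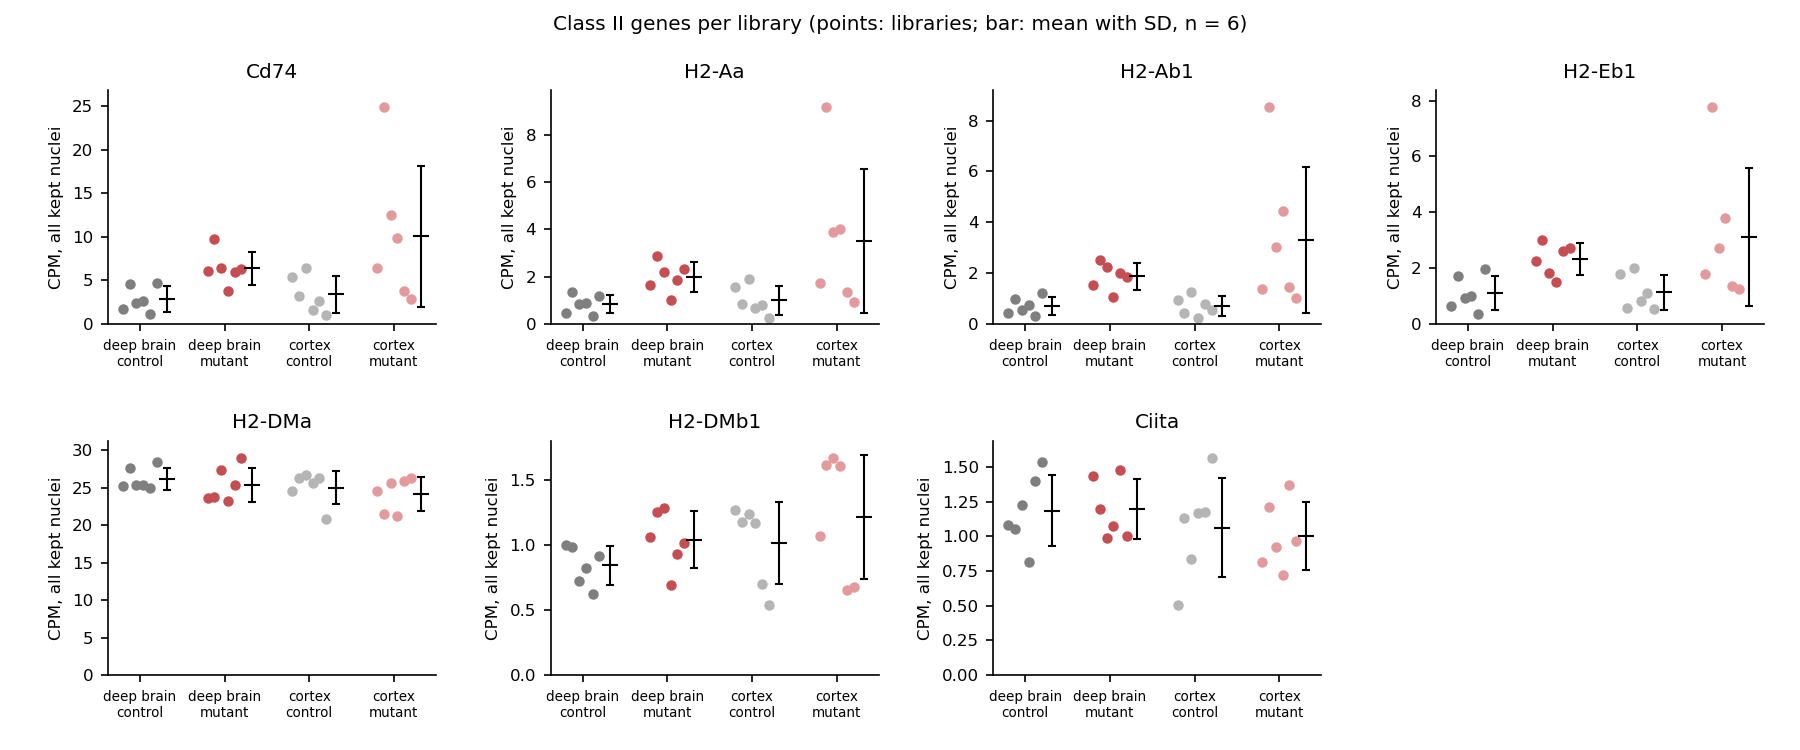
Level of the 7 members over all kept nuclei of a library, as CPM on linear axes, by region and genotype; each point is a library and the bar is the mean ± SD of 6 libraries. *Cd74* and the I-A and I-E chains lie above the highest control in 4 or 5 of 6 mutants in the deep brain. In the cortex this holds for 5 of 6 mutants for *H2-Ab1* and for 3 of 6 for the others. Genotypes overlap in both regions, and *H2-DMa* and *Ciita* overlap throughout.

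With edgeR's quasi-likelihood test and Benjamini-Hochberg adjustment over 21040 genes, 1 of the 7 members rose in deep brain libraries, where 1.54% of genes were called. That member was *H2-Ab1*, 2.63-fold higher in mutants (log2 fold change 1.40, SE 0.30, adjusted p = 0.0379). The call was lost when any 1 of 9 libraries was left out (mutants 1, 2, 3, 5 and 6 and controls 1, 3, 4 and 5), where the log2 fold change was 1.23 to 1.45 and the adjusted p reached 0.0938. *Cd74* had a log2 difference of 1.17 (SE 0.32, adjusted p = 0.0914), *H2-Aa* of 1.25 (SE 0.32, adjusted p = 0.0699) and *H2-Eb1* of 1.081 (SE 0.33, adjusted p = 0.123), none past the threshold. With DESeq2 these 3 and *H2-Ab1* passed, 4 of 7 members against 4.56% of genes, and with the replicate number as a block *Cd74*, *H2-Aa* and *H2-Ab1* passed, 3 of 7 against 2.41%. *H2-DMa* had a log2 difference of -0.05 (SE 0.05, adjusted p = 0.758), *H2-DMb1* of 0.29 (SE 0.17, adjusted p = 0.497) and *Ciita* of 0.02 (SE 0.15, adjusted p = 0.9803). *H2-DMa* was at 23.3 to 28.9 CPM in mutants and 25.02 to 28.4 CPM in controls, and *Ciita* at 0.991 to 1.48 and 0.818 to 1.53 CPM, with both ranges overlapping widely.

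Of the other genes of the pathway, a list of 38 (proteases, chaperones, RFX and NF-Y subunits, interferon-γ signalling and co-receptors) of which 37 were listed and 35 could be tested, 4 rose and none fell in the deep brain, beside the same 1.54% of all genes, and 3 of the 4 are described here. They too were read in sums in which the immune share of nuclei was higher in every mutant. *Cd86*, a co-stimulatory ligand of antigen-presenting cells, had a log2 fold change of 0.51 (SE 0.08, adjusted p = 0.00964). *Lag3*, a receptor for class II, had 0.74 (SE 0.15, adjusted p = 0.0346), and *Ctss*, the cathepsin that trims the invariant chain, 0.60 (SE 0.13, adjusted p = 0.0428). The median of the 35 was 0.07, against -0.003 over all genes tested. *H2-DMb2*, the neighbour of *H2-DMb1*, had 0.15 (adjusted p = 0.896).

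In the cortex the members spanned wider ranges. Libraries there were uneven: 47714 of 58270 barcodes were kept in mutants and 32253 of 51435 in controls. Median depths of kept nuclei ran from 813 to 8054 UMIs in mutants and from 804 to 7665 UMIs in controls. Controls 1, 2 and 6 kept 3008 of 9259, 2821 of 6974 and 2328 of 7242 barcodes. The part of this, and of the low-depth class, in the differences between genotypes was not tested. *Cd74* was at 2.88 to 24.9 CPM in mutants (median 8.16, mean 10.1 ± 8.13 SD) and 1.07 to 6.47 CPM in controls (median 2.94, mean 3.40 ± 2.12 SD), with 3 of 6 mutants above the highest control. *H2-Ab1* was at 1.02 to 8.52 CPM in mutants and 0.2501 to 1.28 CPM in controls, with 5 mutants above. No member was without overlap, against 0.507% of genes with at least 15 UMIs. None of the 7 members passed the test, in which 0.275% of 18171 genes were called. The log2 differences were 1.58 for *Cd74* (SE 0.54, adjusted p = 0.352), 1.80 for *H2-Aa* (SE 0.57, adjusted p = 0.295), 2.19 for *H2-Ab1* (SE 0.55, adjusted p = 0.146) and 1.45 for *H2-Eb1* (SE 0.49, adjusted p = 0.345). Without mutant 2 they were 1.05, 1.20, 1.62 and 0.92 in the same order. Mice of the same number deviated together in the cortex (r 0.212 to 0.762), but only 3 of 6 mutants matched best with the control of that number. Paired by age, r was 0.212 to 0.604, so the numbers were not shown to pair mice. With the replicate number as a block 2.3% of genes were called, again with no member among them.

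Macrophage-like nuclei were few and carried much of the *Cd74*. They numbered 214 in the deep brain, 0.171% of kept nuclei with 38.96% of the *Cd74* UMIs and 11.2% of the *Ciita* UMIs, and 70 in the cortex, 0.0875% of nuclei with 32.7% of the *Cd74* UMIs. The cluster met 8 of 8 macrophage markers and also 4 of 6 dendritic cell markers and 4 of 6 monocyte markers. They made up 0.119 to 0.304% of nuclei in deep brain libraries of mutants (mean 0.206 ± 0.0596 SD, n = 6) and 0.0531 to 0.207% in those of controls (mean 0.137 ± 0.0612 SD, n = 6), a difference that did not pass a two-sided exact permutation test (p = 0.0736, adjusted p = 0.147 over 6 such tests). With the immune nuclei clustered at resolution 0.2 the difference was 0.115 in place of 0.0698 percentage points (exact permutation p = 0.0281). The difference at resolution 0.4 was also past 0.05, unadjusted, when mutant 6, control 4 or control 6 was left out (exact permutation p = 0.0303, 0.0390 and 0.0476). In the cortex the share was 0.1003 ± 0.0655% in mutants and 0.0575 ± 0.0609% in controls (exact permutation p = 0.262), a difference of 0.0428 percentage points that was 0.0225 without mutant 6, and 2 control libraries had no such nucleus.

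Within deep brain macrophage-like nuclei the class II level was 1867 to 6954 CPM of *Cd74* in mutants (median 4137, mean 4217 ± 1908 SD) and 701 to 4417 CPM in controls (median 2722, mean 2621 ± 1621 SD). The ranges overlapped and the difference of 1595 CPM did not pass a two-sided exact permutation test (p = 0.154, adjusted p = 0.231). Without mutant 2 it was 1048 CPM, and with the immune nuclei clustered at resolution 0.2 it was 869 CPM (exact permutation p = 0.316). Without mutant 3 it was 2066 CPM (exact permutation p = 0.0693), and at resolution 0.8 it was 1627 CPM (exact permutation p = 0.0801). *H2-Ab1* had 1012 to 2262 CPM in mutants and 389 to 1476 CPM in controls, with 4 mutants above the highest control, and no member was without overlap, against 0.0824% of 6070 genes with at least 15 UMIs. No gene was called by edgeR among the 558 tested (0%; 19 at an unadjusted p under 0.05, and 0 by DESeq2), and *Cd74*, *H2-Aa*, *H2-Ab1* and *H2-Eb1* had log2 differences of 0.65 to 0.74 (adjusted p = 0.969 each). *H2-DMa*, *H2-DMb1* and *Ciita* were below the count filter there.

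**Figure D3:**
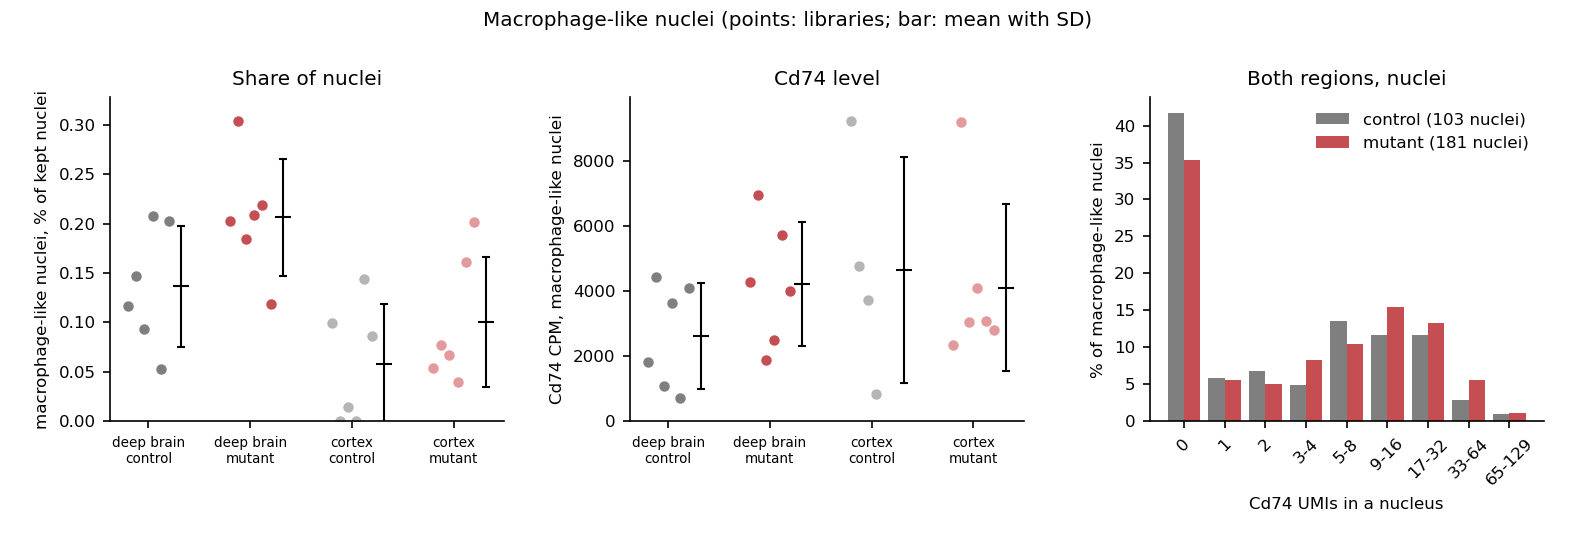
Left, macrophage-like nuclei as a percent of kept nuclei per library; middle, *Cd74* in these nuclei as CPM per library, with bars for mean ± SD and only 4 cortex control libraries with such nuclei; right, percent of the 103 control and 181 mutant macrophage-like nuclei in each bin of *Cd74* UMIs. Mutant and control libraries overlap in the first 2 panels, and nuclei range from no *Cd74* UMI to more than 10 in both genotypes.

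The macrophage-like nuclei were not uniform in class II. Of the 284, 107 (37.7%) had no *Cd74* UMI, 145 had 3 or more, and the 10 richest nuclei held 598 of the 2470 *Cd74* UMIs, with up to 119 in 1 nucleus. Members were detected together: after thinning, nuclei with a *Cd74* UMI also had *H2-Aa* in 76.0%, *H2-Ab1* in 80.0%, *H2-Eb1* in 82.7%, *Ciita* in 32.0%, *H2-DMb1* in 21.3% and *H2-DMa* in 16.0%. Nuclei without one had these genes in 3.45%, 6.90%, 8.62%, 0.862%, 5.17% and 6.03%.

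A finer clustering (resolution 0.8) set apart 27 dendritic-like nuclei led by *Cd209a*, *Cd209c* and *Plbd1*, 26 of them from the macrophage-like cluster. They held 700 *Cd74* UMIs (8886 CPM) and had *Ciita* at 673 CPM and *H2-DMb1* at 368 CPM. They also met 7 of 8 T cell markers. The other 258 macrophage-like nuclei still differed by *Cd74* in genes that the split did not use. The 121 with at least 3 *Cd74* UMIs had *Mrc1*, the mannose receptor, at 1983 CPM, *F13a1* at 1785 CPM, the haemoglobin scavenger receptor *Cd163* at 238 CPM, *Lyve1* at 28.2 CPM and the chemokine receptor *Ccr2* at 657 CPM. The 105 with none had *Mrc1* at 3902, *F13a1* at 4647, *Cd163* at 833, *Lyve1* at 135 and *Ccr2* at 42.1 CPM, at a median depth of 2175 UMIs against 1705. The 32 with 1 or 2 lay between, with *Mrc1* at 3002 and *Ccr2* at 287 CPM. *Ciita* was at 403 CPM in the first group and had no UMI in the nuclei without *Cd74*. These are sums over nuclei, described without a test. Nuclei with 3 or more *Cd74* UMIs made up 63 of 121 in deep brain mutants (52.1%), 31 of 74 in deep brain controls (41.9%), 20 of 44 in cortex mutants (45.5%) and 7 of 19 in cortex controls (36.8%).

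In microglia-like nuclei of the deep brain, *Cd74* was higher in every mutant library than in every control library. It was at 19.2 to 175 CPM in mutants (median 31.1, mean 59.3 ± 60.8 SD, 137 UMIs over 1157 nuclei) and at 2.66 to 10.6 CPM in controls (median 5.95, mean 6.07 ± 3.00 SD, 13 UMIs over 915 nuclei). Such a separation held for 0.286% of the 12936 genes with at least 15 UMIs over both genotypes together and for 1 of the 6 members that reached this minimum. *Cd74* reached it through the mutants, as the controls held 13 UMIs, so this share is a description only. Mutant 3 was highest and held 63 of the UMIs, and each control had 1 to 4. The difference of 53.2 CPM had p = 0.00216 in a two-sided exact permutation test, the smallest that 6 against 6 can give, and 0.0130 adjusted over 6 tests. This test was added after the data were seen, and the study had named *Cd74* as raised in calcification-associated microglia of these samples. The adjustment does not cover that choice, so these p-values are a description. Without mutant 3 the difference was 29.99 CPM (exact permutation p = 0.00433). *Cd74* was below the count filter of the fit across genes. Without that filter edgeR called it, beside 0.434% of genes. It was also called where nuclei with UMIs of other cell types were kept (log2 fold change 2.94, SE 0.50, adjusted p = 0.00367, beside 0.21% of genes) or removed only at 2 such UMIs (2.82, SE 0.52, adjusted p = 0.00747, beside 0.229%). In these settings controls were at 3.36 to 13.1 and 3.70 to 14.1 CPM, and mutants at 25.5 to 196 and 24.9 to 194 CPM. The gene thus reached the count filter there through the mutants, and the nuclei kept could hold UMIs of the macrophage gene *Mrc1*. These calls are a description only.

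The other members were sparse in these nuclei or did not pass the test. *H2-Aa* was at 2.01 to 16.7 CPM in mutants and 0 to 2.64 CPM in controls, *H2-Ab1* at 2.23 to 50.1 and 0 to 10.3 CPM, and *H2-Eb1* at 0 to 25.03 and 0 to 5.32 CPM, with overlap for each. *Ciita* had 2 UMIs in all mutants, from 1 library, and none in controls. *H2-DMa* was at 38.4 to 98.8 CPM in mutants (median 77.7) and 48.1 to 95.4 CPM in controls (median 56.9), and *H2-DMb1* at 24.1 to 44.6 (median 39.6) and 20.3 to 69.5 CPM (median 31.8). Neither H2-DM gene passed edgeR's test, which called 0.144% of 6924 genes (log2 difference 0.23, SE 0.22, adjusted p = 0.950 for *H2-DMa*; -0.02, SE 0.27, adjusted p = 1.00 for *H2-DMb1*).

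**Figure D4:**
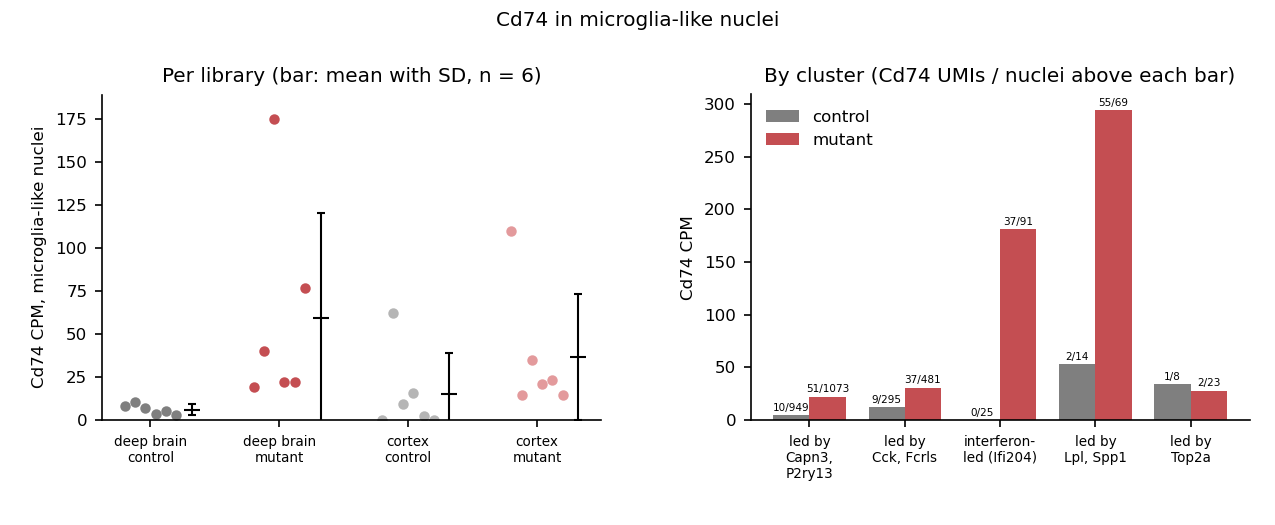
Left, *Cd74* in microglia-like nuclei as CPM per library, with bars for mean ± SD of 6 libraries, cut at 0; right, *Cd74* CPM in the microglial clusters by genotype over both regions, with UMIs and nuclei above each bar. The 6 deep brain mutants lie above the 6 controls, and among mutants the bars of the interferon-led and *Lpl*-led clusters are the highest (124 and 165 CPM without deep brain mutant 3).

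*Cd74* UMIs were found in few microglia-like nuclei, and at this depth a nucleus without one may still have the transcript. Over both regions 102 of 1737 mutant nuclei had a UMI (5.87%, up to 13 in 1 nucleus) and 17 of 1291 control nuclei (1.32%, up to 4), and 16 against 1 had at least 3. Of the 102, 34 were in the cluster led by *Lpl*, *Spp1* and *Cst7* or in that led by the interferon-response genes *Ifi204*, *Oasl2* and *Irf7*. The *Lpl*-led cluster shares leading genes with the calcification-associated microglia of the study but was rebuilt here over both regions and holds 14 mutant and 2 control nuclei of the cortex, so it is not the same set. This cluster, 2.74% of nuclei, held 27.9% of the *Cd74* UMIs, with 294 CPM in 69 mutant nuclei and 52.9 CPM in 14 control nuclei. The control value rests on 2 UMIs. The interferon-led cluster, 3.83% of nuclei, held 18.1%, with 182 CPM in 91 mutant nuclei and no UMI in 25 control nuclei, which allows a level of up to 50.9 CPM. Deep brain mutant 3 supplied 30 of the 55 mutant *Cd74* UMIs of the *Lpl*-led cluster and 15 of the 37 of the interferon-led cluster, and without it these were at 165 CPM in 55 and 124 CPM in 80 mutant nuclei and held 19.1% and 15.6% of the UMIs. The 2 largest clusters held 29.9% and 22.5% of the *Cd74* UMIs. In the largest *Cd74* was at 22.2 CPM in 1073 mutant and 4.58 CPM in 949 control nuclei, and in the next at 30.8 CPM in 481 and 12.0 CPM in 295. The latter 2 values were 18.1 CPM without cortex mutant 1, which held 18 of 37 UMIs, and 5.90 CPM without cortex control 2, which held 5 of 9. With the *Lpl*-led and interferon-led clusters left out, deep brain microglia had 5.29 to 60.4 CPM in mutants and 2.83 to 8.33 CPM in controls, a difference of 19.0 CPM (two-sided exact permutation p = 0.00866). It was 11.8 CPM without mutant 3 (exact permutation p = 0.0173). These tests, too, were added after the data were seen.

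In deep brain mutants the 72 microglia-like nuclei with a *Cd74* UMI and the 1085 without had similar median depths, 2292 and 2132 UMIs. The former had the lipoprotein lipase *Lpl* at 242 against 18.8 CPM, *Apoe* at 933 against 287, osteopontin (*Spp1*) at 201 against 7.25, *Csf1* at 218 against 26.0 and the receptor *Axl* at 106 against 14.5 CPM. The homeostatic marker *P2ry12* was at 1571 and 1576 CPM. Without mutant 3 *Lpl* was at 118 against 19.0 CPM, over 44 and 957 nuclei. In cortex mutants, where 30 nuclei had a *Cd74* UMI and 550 had none, *Apoe* was at 455 against 178 CPM and *Lpl* at 19.8 against 7.41 CPM, but *Csf1* was at 29.6 CPM in both. The median depths there were 3643.5 and 2170.5 UMIs, and the *Lpl* and *Csf1* values of the 30 nuclei rest on at most 3 UMIs each. *Axl* was at 0 against 11.1 CPM and *Spp1* at 0 against 1.48 CPM there, and a count of 0 over the 30 nuclei allows up to 29.6 CPM. The study named most of these genes on these samples, and the values are a description.

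In cortex microglia the groups overlapped. *Cd74* was at 14.6 to 110 CPM in mutants (median 22.3, mean 36.4 ± 36.7 SD) and 0 to 62.3 CPM in controls (median 5.75, mean 14.9 ± 24.0 SD), and the difference of 21.6 CPM did not pass a two-sided exact permutation test (p = 0.310). It was 6.88 CPM without mutant 1 (exact permutation p = 0.619) and 31.0 CPM without control 2 (exact permutation p = 0.0130). The largest values came from few nuclei, 18 UMIs over 41 nuclei in mutant 1 and 5 UMIs over 24 nuclei in control 2. No member could be tested in the fit across genes. The effect of genotype on *Cd74* was not shown to differ between the regions: the interaction in edgeR was 1.46 (log2, SE 1.17, adjusted p = 1.00), in a fit that called 0% of 7813 genes (262 at an unadjusted p under 0.05, and 0 by DESeq2). Neither that fit nor the fit of control microglia between regions had a term for the mouse, although each mouse gave both libraries. With 1 mouse left out the *Cd74* interaction was 0.67 (control 2) to 2.28 (mutant 1), and without mutant 3 the gene did not reach the count filter. In control microglia the 2 H2-DM genes did not pass between deep brain and cortex, where 2.22% of 6027 genes were called (log2 difference, deep brain minus cortex, of -0.11, SE 0.26, adjusted p = 0.962 for *H2-DMa* and -0.26, SE 0.34, adjusted p = 0.896 for *H2-DMb1*). In that comparison *Ctss* (-0.62, SE 0.13, adjusted p = 0.00287) and *Lag3* (-1.16, SE 0.21, adjusted p = 0.00055) fell in the deep brain and none rose, of 24 pathway genes tested.

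Outside the macrophage-like cluster the deep brain nuclei together had *Cd74* at 2.51 to 5.66 CPM in mutants (mean 3.97 ± 1.25 SD) and 0.833 to 2.89 CPM in controls (mean 1.72 ± 0.849 SD). The difference of 2.25 CPM passed a two-sided exact permutation test (p = 0.00433, adjusted p = 0.0130 over 6 tests), which was added after the data were seen. With all immune nuclei left out the difference was 1.076 CPM (2.55 against 1.47 CPM, exact permutation p = 0.0411). The set outside the macrophage-like cluster held mixed immune clusters with markers of other types. The largest, over both regions, were 447 nuclei with oligodendrocyte, 405 with neuronal and 98 with astrocyte markers. They had *Cd74* at 35.5, 49.6 and 156 CPM and *Mrc1* at 43.3, 27.7 and 54.1 CPM. The smaller mixed clusters had *Cd74* at 1.43 to 9.36 CPM. The part of these nuclei in the difference was not tested. The background classes had *Cd74* at 1.31 CPM in mutant and 0.617 CPM in control neurons, and at 2.85 and 1.72 CPM in oligodendrocytes, and the part of free RNA in the difference was not tested. In deep brain oligodendrocytes *Cd74* did not pass (log2 difference 0.77, SE 0.32, adjusted p = 0.269, beside 1.7% of 13674 genes), and in astrocytes it was below the count filter, as were all members in endothelial cells, where 1.63% of 3559 genes were called. *H2-DMa* had log2 differences of 0.07 (SE 0.14, adjusted p = 0.870, beside 5.12% of 12805 genes) in astrocytes and -0.02 (adjusted p = 0.965) in oligodendrocytes.

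By CPM, fibroblast-like nuclei had the highest *Cd74* of the non-immune classes in both regions, and most of it lay in 1 of their clusters. In the deep brain the second cluster, led by *Bnc2*, *Adamtsl3*, *Slc47a1* and *Slc26a7*, had 393 *Cd74* UMIs in 490 nuclei (222 CPM), and 130 nuclei (26.5%, or 14.2% thinned) had at least 1, up to 38. *H2-Aa* was at 78.5, *H2-Ab1* at 39.5, *H2-Eb1* at 49.7, *H2-DMb1* at 33.9 and *Ciita* at 11.3 CPM in the same nuclei. This second cluster met 3 of 6 fibroblast markers, the fewest that the naming rule allowed, and the first cluster met 6 of 6. The first cluster had 42 *Cd74* UMIs in 948 nuclei (14.9 CPM, 3.16% of nuclei, 1.502% thinned), above the oligodendrocytes at 2.28 CPM and 0.255% thinned. Of the 490 nuclei of the second cluster 487 had no UMI of the macrophage gene *Mrc1*, and these held 383 of the 393 UMIs. Dendritic-like and B-like nuclei had *Mrc1* at 216 and 0 CPM, so a lack of *Mrc1* does not set nuclei apart from those. The source of the UMIs was not tested. The cortex gave the same order, with 133 CPM in 166 nuclei of its second cluster and 18.5 CPM in 289 of its first. There too the second cluster met 3 of 6 fibroblast markers and the first 6 of 6. The genotypes overlapped in the second cluster: 55.1 to 840 CPM in deep brain mutants (median 193, highest in mutant 2) and 124 to 282 CPM in controls (median 156), and 0 to 183 and 0 to 268 CPM in the cortex.

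**Figure D5:**
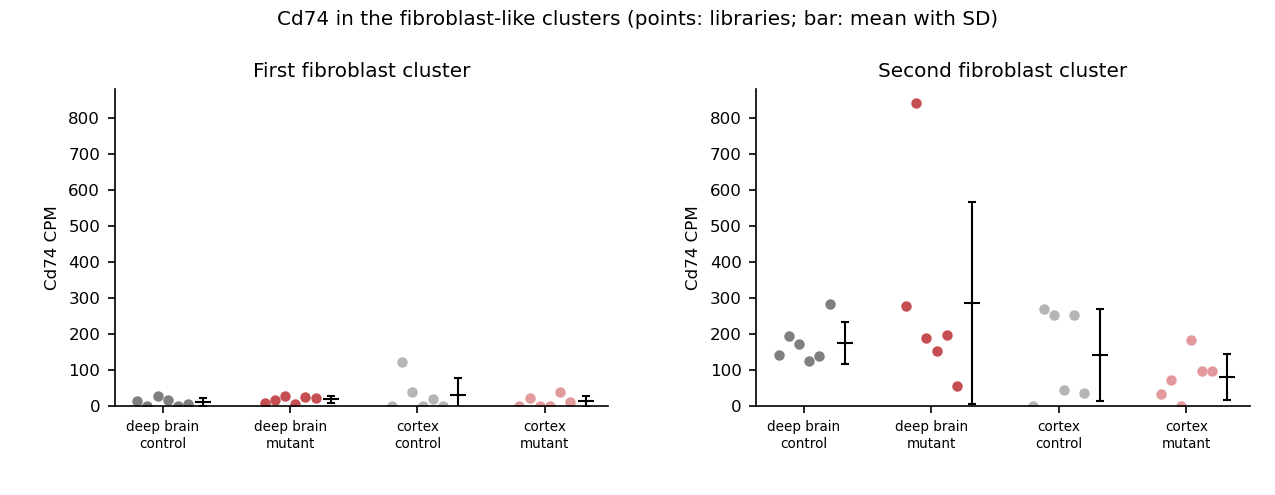
*Cd74* as CPM per library in the first and the second fibroblast-like cluster, by region and genotype, on the same linear scale from 0. Points are libraries and bars the mean ± SD of 6 libraries, cut at 0; the second cluster lies higher than the first in the deep brain, and mutants and controls overlap.

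Other levels rested on single nuclei. In T-like nuclei 133 of the 135 *Cd74* UMIs came from 1 nucleus of cortex mutant 2, which the finer clustering placed with the dendritic-like nuclei, and the remaining 169 nuclei had 2 UMIs (7.03 CPM). That 1 nucleus also held 2 UMIs of *Cd3e* and 13 of *Skap1*, among 8633 UMIs against a median of 1508.5 in T-like nuclei. In cortex endothelial-like nuclei 93 of the 148 *Cd74* UMIs came from 1 nucleus of cortex mutant 5, and the remaining 304 had 24.0 CPM. B-like nuclei, 19 in both regions, had 3841 CPM of *Cd74* and no *H2-DMb1* UMI, and a count of 0 there allows up to 88.0 CPM.

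Over the 12 deep brain libraries, with all immune nuclei summed, *Cd74* ranged from 19.6 to 336 CPM. Of 12080 genes the 5 whose log2(CPM + 10) was most like that of *Cd74* by Pearson's r were *H2-Ab1* (0.978), *H2-Aa* (0.978), *H2-Eb1* (0.977), *Slamf7* (0.898) and *Myof* (0.884). *Ciita* was at 0.710 (rank 127), *H2-DMb1* at 0.566 (rank 459) and *H2-DMa* at 0.522 (rank 622). The points share their libraries, genotype and the proportions of immune cell types, so these values describe the libraries.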

How the data were processed

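Nuclei were profiled with the 10x 5′ kit in 24 libraries. The authors aligned reads to mm10 with Cell Ranger 5.0.1, introns included, and deposited UMI counts per gene and barcode. Nuclei with over 500 and under 7000 genes and under 20% mitochondrial UMIs were kept. Nuclei were clustered with scanpy 1.11.5 and Seurat 5.3.0 (scale 1000, 2000 variable genes without the class II genes, 20 components and resolution 0.01, then 0.1; immune nuclei 30 components and 0.4). Immune clusters were named by at least 3 markers, and 50% of a list, over 2-fold. Microglia-like clusters met none of these lists and had 9 microglial markers above non-immune nuclei. An immune cluster of 537 nuclei led by mitochondrial genes also had these 9 markers, but it was left unnamed and out of the microglia-like nuclei. In the other clusters a marker counted from 25% of its highest level among clusters. At least 3 markers and 50% of a list were needed there too, except that neurons were also named at 3 of 7. The naming rules were set with the clusters already known. Any UMI of *Rbfox3*, *Aqp4*, *Mbp* or *Mrc1* removed a microglial nucleus, which left 3028 of 4403. Doublets marked by Scrublet were kept, and were left out as an alternative only for deep brain microglia-like and macrophage-like nuclei. The calls were not used in the cortex, since the caller marked under 0.11% or over 25% of nuclei in 8 libraries there.

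Counts were summed per library and class and tested with edgeR 4.0.16 (quasi-likelihood, TMM, filterByExpr, Benjamini-Hochberg, threshold 0.05), with at least 5 nuclei per library for macrophages and endothelial cells, and 6 single values with two-sided exact permutation tests over the 924 assignments of libraries. All 7 members are named with values, and pathway genes where they pass or stand beside a member. 1 item of the pathway list is not reported here. Members, lists and tests were chosen with earlier results of these data known. Within a region each library is a separate mouse, and both regions come from the same 12 mice. Intervals and limits at a count of 0, of 3 UMIs over the group, cover counting error only. In the cortex sums all 6 pairs of the same number deviated together (r 0.212 to 0.762), but only 3 of 6 mutants matched best with that partner. Replicate numbers were taken as a pairing there, and within a mouse between regions. The main fits did not use this pairing, which entered only through the replicate blocks among the alternatives. Alternatives were DESeq2 1.42.0, RLE factors, no count filter, replicate blocks, other resolutions, a 5% mitochondrial limit, thinning and each library left out. Tests on *Cd74* in microglia and outside the macrophage-like cluster were added after seeing the data. The scripts were tested on simulated data.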

Additional observations from a re-analysis of the deposited data

Results flagged for a closer look

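In 6 of 44 groups of 4 to 6 libraries 1 library stood apart from the others by Dixon's criterion, where chance alone flags about 1 group in 20. *Cd74* in deep brain microglia-like nuclei was at 175 CPM in mutant 3 (63 UMIs over 156 nuclei), against 19.2 to 76.9 CPM in the other mutants. In cortex microglia-like nuclei it was at 110 CPM in mutant 1 (18 UMIs over 41 nuclei), against 14.6 to 35.0 CPM, and at 62.3 CPM in control 2 (5 UMIs over 24 nuclei), against 0 to 15.5 CPM. In macrophage-like nuclei of the cortex it was at 9189 CPM in mutant 2 (218 UMIs over 5 nuclei), against 2342 to 4090 CPM. Over whole cortex libraries *H2-Aa* was at 9.15 CPM in mutant 2, against 0.922 to 4.00 CPM, and *H2-DMa* was at 20.8 CPM in control 6, against 24.5 to 26.8 CPM.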

How the results depend on the processing

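In whole deep brain libraries 1 member was called, against 4 with DESeq2, 3 with the replicate block and 0 to 2 with 1 library left out. The block gave *Cd74* a log2 fold change of 1.26 (adjusted p = 0.0464) and *H2-Aa* 1.29 (adjusted p = 0.0428), but the numbers did not pair these libraries (r -0.129 to 0.266). In whole cortex libraries no member was called, against 1 with DESeq2 (*H2-Ab1*, log2 fold change 2.25, adjusted p = 0.0020, beside 1.49% of 18171 genes), and the block moved the genes called from 50 to 418. In deep brain microglia no member was called, against 1 (*Cd74*) with no count filter, with contaminated nuclei kept and with removal at 2 UMIs. The block changed no other count of members called. The excess of macrophage-like nuclei in the deep brain was 0.115 percentage points at resolution 0.2 (exact permutation p = 0.0281) and 0.0503 to 0.0872 with 1 library left out. The difference of *Cd74* in cortex microglia was 27.1 CPM with contaminated nuclei kept (exact permutation p = 0.0325), 26.8 CPM with removal at 2 UMIs (p = 0.0433) and 6.88 to 31.0 CPM with 1 library left out. The cause of these changes was not tested.

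Log2 differences that were never called changed sign as follows. *H2-DMb1* in deep brain microglia was 0.021 with the replicate block, 0.011 with the block by age, 0.047 at resolution 0.2 and -0.14 to 0.29 with 1 library left out. *H2-DMa* was 0.10 in the interaction with contaminated nuclei kept, 0.017 with removal at 2 UMIs and -0.41 to 0.14 with 1 library left out, and in control microglia between regions 0.023 with the block, 0.019 with removal at 2 UMIs and -0.30 to 0.24 with 1 library left out. With 1 library left out, *Ciita* was -0.063 to 0.091 in whole deep brain and -0.20 to 0.070 in whole cortex libraries, and *H2-DMa* -0.072 to 0.016 in whole cortex libraries, -0.013 to 0.15 in astrocytes and -0.12 to 0.054 in oligodendrocytes.

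Counts of all genes called moved most for whole deep brain libraries (324, against 960 with DESeq2, 507 with the block and 92 to 450 with 1 library left out), whole cortex libraries (50, against 270 with DESeq2, 77 with no filter, 241 with the block by age and 11 to 110), deep brain microglia (10, against 84 with no filter, 18 with contaminated nuclei kept, 19 with removal at 2 UMIs and 7 to 15), cortex microglia (7, against 48 with no filter, 26 with the block, 22 with the block by age, 15 with contaminated nuclei kept, 14 with removal at 2 UMIs, 11 with DESeq2 and 3 to 14), control microglia between regions (134, against 202 with contaminated nuclei kept), endothelial cells (58, against 159 with no filter and 32 to 101), astrocytes (655, against 427 to 1061), oligodendrocytes (232, against 543 with DESeq2 and 115 to 471), macrophages (0, against 8 with no filter) and the interaction (0, against 1 with no filter).

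Depth limits all class values of the cortex low-depth nuclei, and *Ciita* in microglia, where a few UMIs decide. Doublet removal was not run for whole libraries, endothelial cells, astrocytes, oligodendrocytes or the nuclei outside the macrophage-like cluster. It was also not run for cortex results, the interaction and the regional comparison.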
